A study of Mus musculus with 2 samples.

Results

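Dividing myeloid cells of the mouse retina were taken from 2 single-cell libraries, 1 from pups with oxygen-induced retinopathy (OIR) and 1 from pups kept in room air (RA). A cell was counted as dividing when at most 20% of its UMIs (unique molecular identifiers, each counting 1 captured transcript) were mitochondrial, when C1qa, C1qb and C1qc together held at least 3 UMIs, and when at least 3 of 8 cell cycle genes (Top2a, Mki67, Birc5, Ube2c, Pclaf, Cdk1, Ccnb1 and Rrm2) held a UMI. The rule found 176 of all 2708 cells, of which 12 were RA cells and 164 were OIR cells. Because the cells were chosen by the UMIs of the C1q genes and of these 8 genes, the values of these genes are given as a description and support nothing.

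Both groups were C57BL/6j pups at P17 with no genetic change named in the labels. OIR pups were placed in high oxygen as neonates to induce loss of retinal vessels (vaso-obliteration). They were then returned to room air, which is followed by neovascular tufts, whereas RA pups breathed room air throughout. Retinas of several pups were pooled, live cells positive for CD11b and F4/80 were sorted, and each pool gave 1 library of 10x Chromium 3′ v3 chemistry. The sex of the pups is not given in the sources used here. Since only 1 library stood for each condition, no condition was tested against the other and no cell was treated as a replicate, and the 95% intervals in parentheses cover counting error only, not differences between mice, litters or preparations.

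The RA matrix held 1449 cells and 12810892 UMIs, with a median of 8607 UMIs per cell. The OIR matrix held 1259 cells and 9835402 UMIs, with a median of 5254 UMIs. No cell barcode was found in both libraries (0 shared). Dividing RA cells summed to 268548 UMIs and dividing OIR cells to 2488847 UMIs, so RA levels rest on few transcripts. The largest dividing RA cell alone gave 28.3% of the RA sum, while the largest dividing OIR cell gave 3.21% of the OIR sum.

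Microglia are the resident macrophages of the retina and brain, and they keep their number by local division at a low rate that can rise after injury. P2ry12, a purinergic receptor, and Tmem119, a surface protein, mark homeostatic microglia, whereas Pf4, a chemokine, and Ms4a7, a membrane protein, are typical of macrophages at vessels and tissue borders and of some activated or monocyte-derived cells. A dividing cell copies its DNA in S phase, with genes driven mainly by E2F factors, and then separates the copies in mitosis, with genes that are held silent in resting cells by the DREAM complex.

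Promoters of 4 of the 8 genes that chose the cells are shown because they carry both short motifs known from late cell cycle genes. CCAAT is the letters bound by NF-Y, and TTTGAA is the core of the cell cycle homology region that DREAM binds. Each line gives the 200 bases before the start of the gene in RefSeq, on the strand of the gene, with every match in capitals on either strand (CCAAT reads ATTGG and TTTGAA reads TTCAAA on the other strand, and in Ube2c 2 CCAAT matches overlap). The build is GRCm38.p6. The positions are chr11:99024190-99024389 on the minus strand for Top2a (DNA topoisomerase), chr7:135716380-135716579 on the minus strand for Mki67 (the Ki67 protein), chr2:164769729-164769928 on the plus strand for Ube2c (a ubiquitin enzyme of mitotic exit) and chr10:69352913-69353112 on the minus strand for Cdk1 (the mitotic kinase).
Top2a: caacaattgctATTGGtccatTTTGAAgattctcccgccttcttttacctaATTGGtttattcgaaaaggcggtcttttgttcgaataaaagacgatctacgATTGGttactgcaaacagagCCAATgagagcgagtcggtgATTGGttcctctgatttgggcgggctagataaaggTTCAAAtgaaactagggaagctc
Mki67: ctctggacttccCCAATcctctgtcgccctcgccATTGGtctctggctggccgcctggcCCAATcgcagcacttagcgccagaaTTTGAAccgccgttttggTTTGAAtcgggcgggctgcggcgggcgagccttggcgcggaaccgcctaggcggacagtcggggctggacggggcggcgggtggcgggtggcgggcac
Ube2c: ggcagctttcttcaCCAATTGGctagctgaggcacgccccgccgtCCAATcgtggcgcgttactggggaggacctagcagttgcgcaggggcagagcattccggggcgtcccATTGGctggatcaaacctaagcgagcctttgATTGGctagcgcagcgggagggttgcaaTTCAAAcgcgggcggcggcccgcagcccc
Cdk1: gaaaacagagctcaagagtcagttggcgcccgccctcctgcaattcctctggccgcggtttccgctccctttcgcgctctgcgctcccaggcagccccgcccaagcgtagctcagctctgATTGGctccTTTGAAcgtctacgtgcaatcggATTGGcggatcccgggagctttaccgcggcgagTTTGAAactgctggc

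Within 250 bases before the start, on either strand, CCAAT stood in the promoters of 7 of the 8 genes (87.5%), against 37.5% of all 27025 genes with a promoter sequence. In the other lists CCAAT stood in 75% of mitosis, 55.6% of replication, 50% of homeostatic, 46.2% of macrophage and 33.3% of glycolytic genes with a sequence. TTTGAA stood in 4 of the 8 (50%), against 18.3% of all genes. It also stood in 10 of 32 mitosis genes (31.2%), 3 of 27 replication genes (11.1%), 5 of 13 macrophage genes (38.5%), 1 of 14 homeostatic genes and 2 of 18 glycolytic genes with a sequence. Both motifs stood together in 4 of the 8, against 6.45% of all genes. A list of 36 mitosis genes that the rule did not use had 32 members with a promoter sequence, and 9 of these (28.1%) held both motifs. Among 37 replication genes the sequence was found for 27, and 2 of these (7.41%) held both. The matches describe the letters and say nothing of binding in these cells.

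Dividing cells made up 12 of 938 C1q-positive RA cells (1.28%, 0.663% to 2.22%) and 164 of 905 C1q-positive OIR cells (18.1%, 15.7% to 20.8%). The share was higher in OIR although its cells were shallower. Cells with at least 2000 UMIs, among them 11 of 12 RA and 142 of 164 OIR dividing cells, were thinned to 2000 UMIs, and shallower cells were left out. Of these, 7 of 911 RA cells (0.768%, 0.309% to 1.58%) and 87 of 780 OIR cells (11.2%, 9.03% to 13.6%) still met the rule. Rod cells were those with at least 20 UMIs of rod photoreceptor genes, fewer than 3 C1q UMIs and at most 20% mitochondrial UMIs. They should not divide at this age, and by this choice they could not meet the C1q part of the rule. At least 3 of the 8 genes were held by 0 of 538, which allows a share of up to 0.683%. Rod cells had a median of 1614.5 UMIs.

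Cells on either side of the threshold differed in depth and in mitosis genes. In OIR, 35 C1q-positive cells held exactly 2 of the 8 genes, with a median of 13082 UMIs, 8 replication genes and 4 mitosis genes. The 25 OIR cells with exactly 3 had a median of 4588 UMIs, 8 replication genes and 7 mitosis genes. All 8 genes were held by 38 OIR cells, at a median of 19381.5 UMIs, and by 2 RA cells. In RA, 11 cells held exactly 2 genes and 2 cells held exactly 3, and 1 further RA cell held all 8 genes but fewer than 3 C1q UMIs and was not counted.

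**Figure D1:**
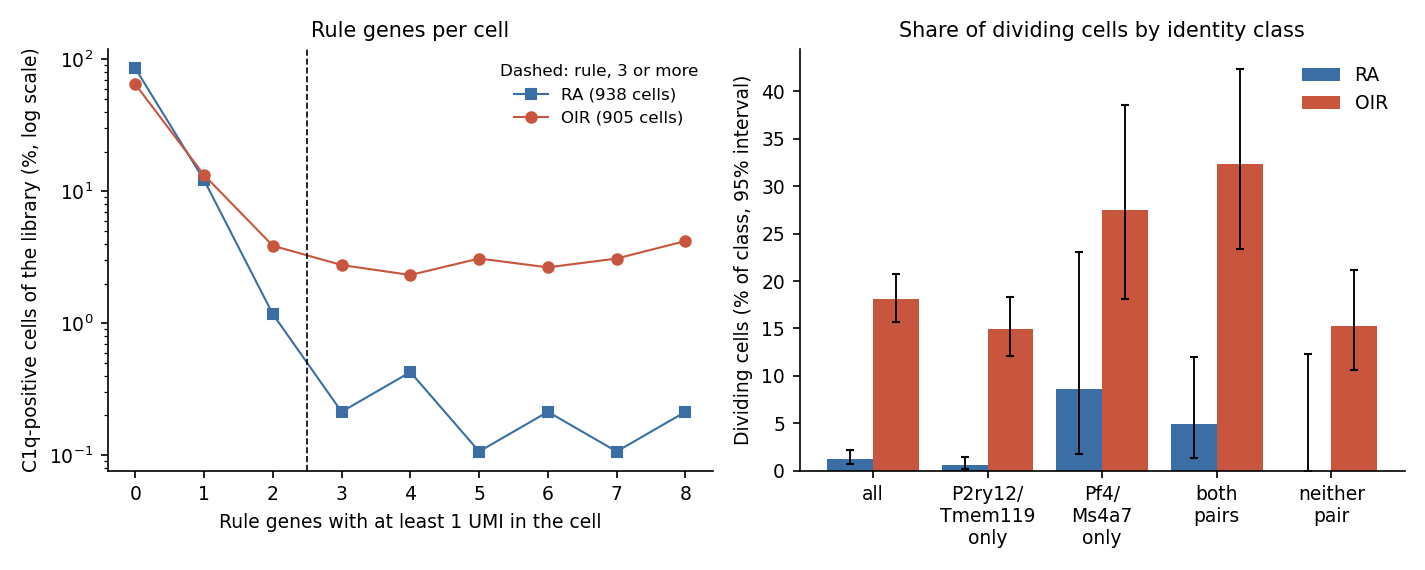
Left, share of C1q-positive cells (%, log scale) by the number of the 8 cell cycle genes with a UMI, for RA (squares) and OIR (circles), with the rule as a dashed line; right, share of dividing cells (%, with 95% binomial intervals) in all C1q-positive cells and in each identity class. OIR lies above RA at every count from 3 genes up, at 18.1% against 1.28% of cells in all, and the OIR class with Pf4/Ms4a7 only stands at 27.5%.

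Markers of sorted identity that the rule did not use are given for the dividing cells as a description. Csf1r, the receptor that microglia and macrophages need to survive, held a UMI in 12 of 12 RA and 93.9% of OIR dividing cells. Adgre1, which encodes F4/80, was found in 8 of 12 and 76.8%, and Itgam, which encodes CD11b, in 7 of 12 and 71.3%. Ptprc, which encodes CD45, was found in 7 of 12 and 67.1%. In rod cells, which should lack them, these 4 genes held a UMI in 1.30%, 0.186%, 0.558% and 0.743% of cells. Rod cells had the lower median depth of 1614.5 UMIs. They were also chosen for few C1q UMIs and dividing cells for more, and CD11b and F4/80 were used in the sort. The contrast can therefore follow from the choice of cells and is no test of identity. The same limit holds wherever rod cell shares of single genes are set against dividing cells below.

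Droplets with more than 1 cell were looked for among the dividing cells. Scrublet called 6 doublets among 2708 cells, of which 0 were dividing, and a caller that marks so few cells gives little protection. Among dividing cells 2 of 12 RA (16.7%) and 16 of 164 OIR (9.76%) were in the 2% of cells of their library with most genes, against 2.05% and 0.945% of the other C1q-positive cells. Median depth was also higher, at 19363 UMIs in RA and 11953.5 in OIR dividing cells against 10349.5 and 7327 in the other C1q-positive cells. The part of doublets in the results below was not tested, and the values without the cells of most genes are given where they differ.

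Markers of cell types outside the sort were followed as whole lists. The 12 rod genes summed to 78.2 CPM (UMIs scaled to the sum of the group) in RA and 67.1 in OIR dividing cells, with 6 of 12 genes at 0 in RA and Sag (arrestin) as the most abundant gene in OIR. In other C1q-positive cells they summed to 607 and 1859 CPM, of which 6889 of the 11482 OIR UMIs were in 1 cell. At least 5 rod UMIs were held by 1 RA and 4 OIR dividing cells. Of 7 cone genes 6 were at 0 in RA and 5 in OIR, and the sums of 145 and 102 CPM, against 172 and 102 CPM in other cells, were led by Gngt2. The 9 endothelial and pericyte genes had 0 UMIs in RA and 18.9 CPM in OIR dividing cells, led by Rgs5, and the 6 glial genes stood at 376 and 416 CPM, led by Glul (glutamine synthetase), against 643 and 575 CPM in the other cells. Lens genes stood at 3.72 and 10.4 CPM.

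Blood cell markers were spread unevenly over the cells. Haemoglobin gave 1491 of its 1518 OIR UMIs in 1 dividing cell. The 5 neutrophil genes summed to 101 CPM in RA and 206 CPM in OIR, where 1 cell held 246 of 513 UMIs and S100a9 led. Of 9 lymphoid and dendritic genes 8 were at 0 in RA and 4 in OIR. Ccr2, the receptor by which monocytes enter tissue, was found in 1 of 12 RA and 10 of 164 OIR dividing cells (6.10%, 2.96% to 10.9%), and Ly6c2, a marker of circulating monocytes, in 0 and 2 cells. The 12 monocyte genes summed to 1106 CPM in RA, where 1 cell held 137 of 297 UMIs, and to 595 CPM in OIR dividing cells, against 407 and 517 CPM in other cells, with Ifi27l2a, an interferon-induced gene, as the most abundant.

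Cell cycle genes beyond the rule were then counted in the dividing cells. In OIR, 147 of 164 (89.6%, 83.9% to 93.8%) held at least 3 of 37 replication genes and at least 3 of 36 mitosis genes, 4 met only the replication count and 13 only the mitosis count. In RA, 8 of 12 met both, 3 met only the mitosis count and 1 met neither. Among other C1q-positive cells 16.0% in RA and 17.8% in OIR met both. These gene sets are not independent of the rule, since cells were chosen for genes of the same programs.

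Single OIR cells held from 0 through a median of 14 to 37 replication genes and from 0 through 17.5 to 36 mitosis genes. RA cells held from 0 through 12.5 to 32 and from 2 through 15.5 to 35, so the ranges overlapped almost fully. Mitosis UMIs outnumbered replication UMIs in 103 OIR cells and the reverse held in 58. In RA the numbers were 6 and 5. Both libraries thus held cells with more replication and cells with more mitosis UMIs. Other C1q-positive cells were split too, with more replication UMIs in 596 RA and 478 OIR cells and more mitosis UMIs in 213 and 130. The presence of both kinds was therefore not particular to dividing cells.

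**Figure D2:**
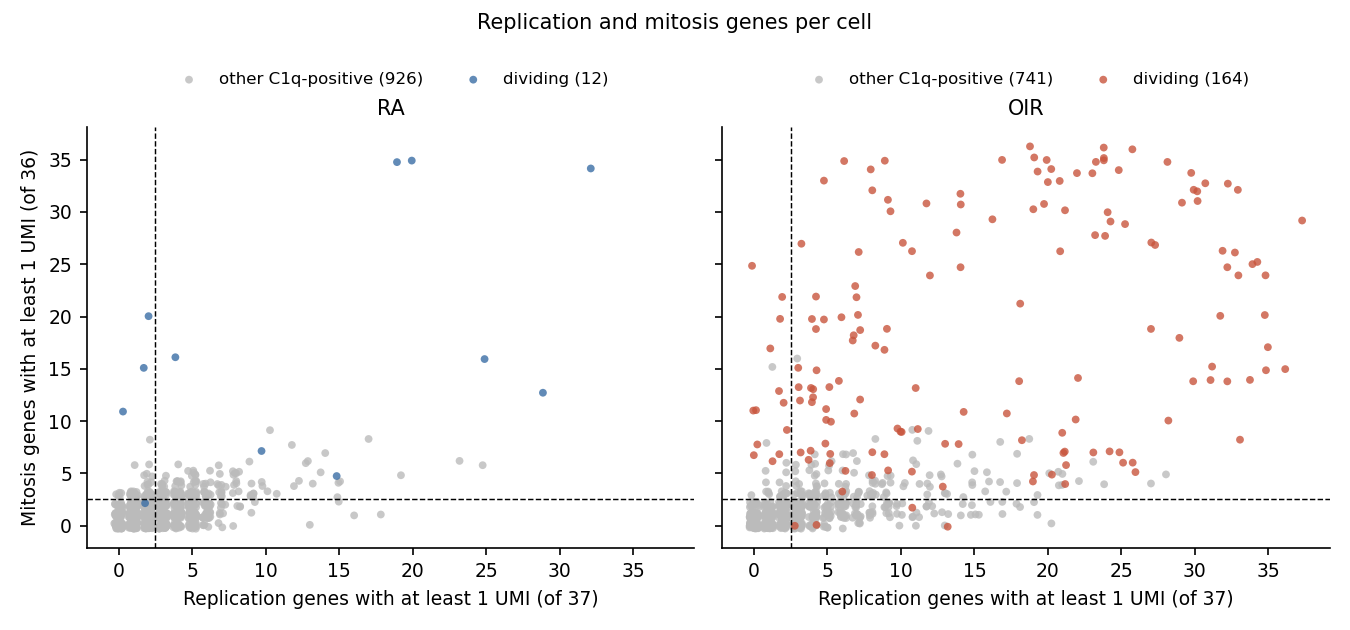
Number of replication genes (of 37, x axis) and mitosis genes (of 36, y axis) with a UMI in every C1q-positive cell of RA and OIR, with dividing cells in color, other cells in gray, small random shifts to part the points and dashed lines at 3 genes. OIR cells fill the range from 0 to 37 replication genes, and 147 of 164 lie above both lines.

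Summed over cells, replication genes stood 0.77 higher on the log2 scale in OIR than in RA dividing cells, and mitosis genes differed by -0.08. Pcna, the sliding clamp of DNA polymerase, stood at 123 CPM in RA and 235 CPM in OIR. Tk1, which salvages thymidine, stood at 44.7 and 153 CPM, and Tyms, which makes thymidylate, at 52.1 and 145 CPM. The other C1q-positive cells had the like replication ratio of 0.78. Cyclin E1 (Ccne1), which starts S phase, had 0 UMIs in RA and 32.1 CPM in OIR dividing cells, at least 2.88-fold higher against a floor of 3 UMIs over the RA group.

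Genes that set entry to the cycle were followed as a list of 20. Cdkn2c, an inhibitor of Cdk4 and Cdk6, stood at 101 CPM in RA and 119 CPM in OIR dividing cells, 3.73 and 3.27 higher (log2) than in other cells. Cdk4, the kinase of G1, stood at 74.5 and 222 CPM. Rbl1, the p107 member of DREAM, stood at 41.0 and 44.6 CPM against 9.0 and 8.58 CPM in other cells. Cdkn1a, which encodes the p21 inhibitor, stood at 600 and 399 CPM. Inhibitors were thus present beside the genes of division in both libraries.

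Chromatin and microtubule genes stood higher in dividing than in other cells of both libraries. Of 3334 genes tested in OIR (at least 50 CPM in 1 of the groups and at least 3 UMIs in both), 5.76% were at least 2-fold higher in dividing cells and 0.69% at least 2-fold lower. Of the chromatin list 15 of 19 tested members were at least 2-fold higher in OIR, and the sum differed by 1.61 (1.59 to 1.63). In RA 12 of 16 tested members were at least 2-fold higher, where 9.13% of 3363 genes were higher and 3.24% lower, and the sum differed by 1.38. Without the largest cell of each group these RA counts of 307 higher and 109 lower genes were 500 and 261. Counts over tested members favor genes that are high in 1 group, because low genes are left out.

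Stmn1, a protein that takes microtubules apart, stood at 693 CPM in RA and 1044 CPM in OIR dividing cells against 31.1 and 99.6 CPM in other cells. H2afz, a histone variant, stood at 1095 and 2191 CPM against 340 and 545 CPM. Hmgb2, which bends DNA, stood at 1054 and 928 CPM against 130 and 131 CPM. Ezh2, the methyltransferase of Polycomb, was 2.43 and 2.17 higher (log2) than in other cells, and Dnmt1, which copies DNA methylation, was 2.12 and 1.55 higher. The 8 genes with the widest ratios outside the lists were also genes of division, such as Pbk, a mitotic kinase, at 143 CPM in OIR dividing and 1.30 CPM in other cells, and Cdca2, Kif22 and Dlgap5 at 5.18 to 6.20 higher.

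Identity was read from 2 pairs of genes, P2ry12 with Tmem119 and Pf4 with Ms4a7, and a pair counted as present at 2 UMIs or more. In OIR, 79 of 164 dividing cells held the P2ry12/Tmem119 pair only (48.2%, 40.3% to 56.1%), 22 the Pf4/Ms4a7 pair only (13.4%, 8.60% to 19.6%), 33 both pairs (20.1%, 14.3% to 27.1%) and 30 neither (18.3%, 12.7% to 25.1%). In RA the 12 cells fell as 5, 3, 4 and 0. Dividing cells were therefore not of a single identity in either library.

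These classes are ranges of counts and depend on depth. Of the OIR dividing cells 18 stood at 1 UMI and 13 at 2 UMIs of the P2ry12/Tmem119 pair, and 16 and 2 stood there for the Pf4/Ms4a7 pair. Cells with neither pair had a median of only 1899 UMIs and those with both pairs 28990 UMIs, and 14 of the 33 cells with both (42.4%) were among the 2% of OIR cells with most genes. After thinning to 2000 UMIs the class with both was 1.15% and the class with neither 39.1% of dividing OIR cells. Of 84 OIR dividing cells with at least 10 UMIs of the 4 genes, the Pf4/Ms4a7 share of these UMIs was under 10% in 39, over 90% in 24 and between in 21.

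The share of dividing cells was then taken within each class. In OIR it was 15.0% (12.1% to 18.3%) of 527 cells with P2ry12/Tmem119 only, 27.5% (18.1% to 38.6%) of 80 cells with Pf4/Ms4a7 only, 32.4% (23.4% to 42.3%) of 102 cells with both and 15.3% (10.6% to 21.1%) of 196 with neither. In RA it was 0.631% of 793, 8.57% (1.80% to 23.1%) of 35, 4.88% of 82 and 0 of 28, which allows up to 12.3%. With members kept and classes set after thinning to 2000 UMIs, the OIR shares were 12.8% for P2ry12/Tmem119 only and 29.8% (21.6% to 39.1%) for Pf4/Ms4a7 only. With members set after thinning as well they were 9.59% (6.70% to 13.2%) and 16.8% (10.4% to 25.0%). The intervals of these 2 classes overlapped as deposited and with members thinned, but not with the classes thinned alone (9.45% to 16.8% for P2ry12/Tmem119 only). The share of the class with both pairs was 22.7% (5 of 22) with only classes thinned and 4.76% (1 of 21) with both thinned, so its place in the order was not fixed.

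P2ry12 was lower in dividing than in other cells of both libraries. It stood at 760 CPM (659 to 871) in RA and 412 CPM (387 to 438) in OIR dividing cells, against 1273 and 722 CPM in other C1q-positive cells. At least 1 UMI was held by 11 of 12 RA and 73.2% of OIR dividing cells, and by 1.49% of rod cells, which should lack it. Single OIR cells held from 0 through a median of 2.5 to 47 UMIs and RA cells from 0 through 5.5 to 76. The ranges of the groups overlapped.

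Tmem119 stood at 238 CPM (184 to 304) in RA and 224 CPM (206 to 243) in OIR dividing cells, and at 479 and 319 CPM in other cells. The OIR over RA ratio in dividing cells was -0.09 (-0.47 to 0.31), which does not fix a direction. It was found in 8 of 12 RA and 63.4% of OIR dividing cells and in 0.186% of rod cells.

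Pf4 was found in 8 of 12 RA and 37.8% of OIR dividing cells, but in only 13.4% and 16.6% of other C1q-positive cells and 0.743% of rod cells. Its level was 1545 CPM (1400 to 1701) in RA and 583 CPM (554 to 614) in OIR dividing cells, against 411 and 384 CPM in other cells. After thinning to 2000 UMIs it was found in 28.9% of dividing and 14.6% of other OIR cells. Ms4a7 stood at 454 CPM (377 to 542) and 290 CPM (269 to 312) against 131 and 188 CPM in other cells, and was found in 5 of 12 RA and 36.6% of OIR dividing cells. Pf4 and Ms4a7 were thus both higher in dividing cells of each library.

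**Figure D3:**
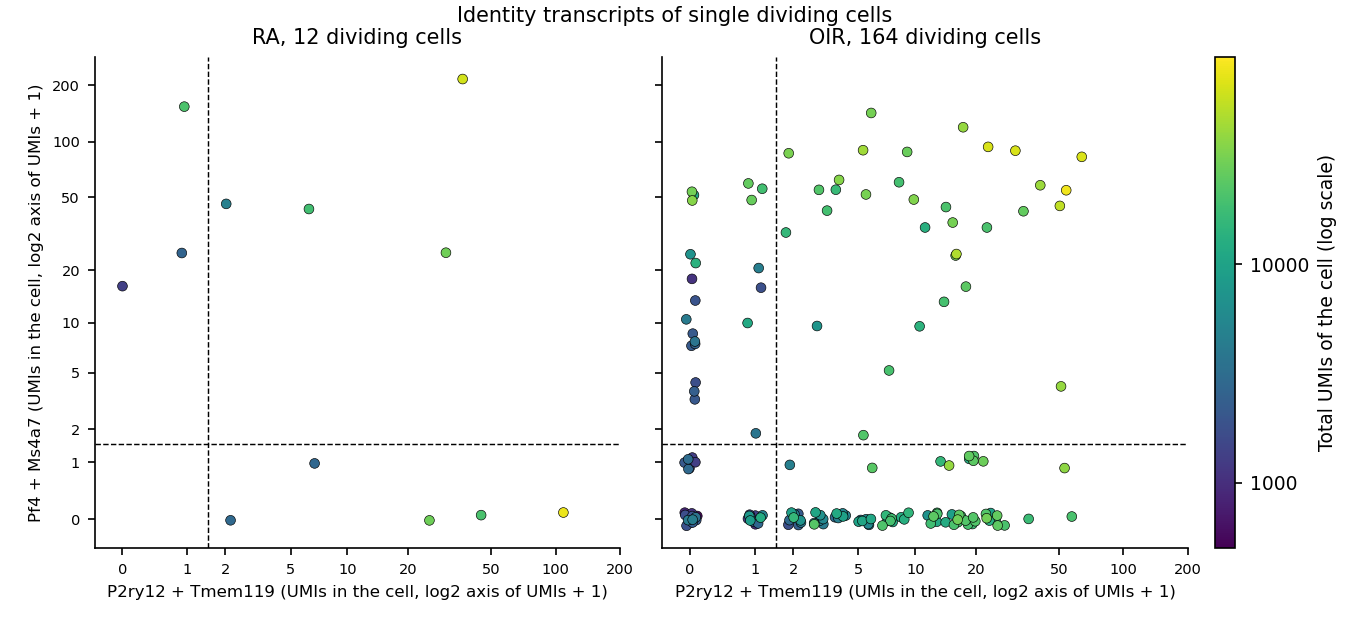
UMIs of P2ry12 plus Tmem119 (x axis) against Pf4 plus Ms4a7 (y axis) in every dividing cell of RA (12) and OIR (164), on log2 axes of UMIs plus 1, colored by the total UMIs of the cell, with dashed lines at the limit of 2 UMIs. Of the OIR cells 79 lie in the lower right and 22 in the upper left, and the cells at the upper right have high totals.

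All 18 homeostatic microglia genes were tested in RA and 17 in OIR, and 1 of the 17 stood higher in dividing cells. The list sum was lower by a log2 ratio of -0.68 in RA and -0.51 (-0.52 to -0.49) in OIR. Cst3, a cysteine protease inhibitor, stood at 10125 and 6333 CPM in RA and OIR dividing cells against 17572 and 10250 CPM in other cells. Cx3cr1, the fractalkine receptor, stood at 1713 and 585 CPM against 1907 and 695 CPM, so it differed more between libraries than between dividing and other cells. Values per cell ran from 0 through a median of 206 to 540 per 10000 UMIs in OIR and from 30.1 through 202 to 375 in RA.

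For the 16 macrophage genes the sum was 1.80 higher in RA and 0.56 (0.51 to 0.60) higher in OIR dividing cells, with 8 of 9 and 1 of 13 tested members at least 2-fold higher. All 13 tested members lay above 0 in OIR. In OIR cells with Pf4/Ms4a7 only, the macrophage sum was instead lower in dividing cells, by -0.30 (-0.39 to -0.22). Of 15 tested members there 3 lay above 0, and 1 was at least 2-fold higher and 3 lower. In OIR cells with P2ry12/Tmem119 only the sum differed by -0.06 (-0.28 to 0.16), which does not fix a direction. Mrc1, the mannose receptor, stood at 633 CPM in RA and 497 CPM in OIR dividing cells against 147 and 297 CPM. Of the 1103 RA UMIs of the list 570 were in 1 cell. Other lists moved with it in RA. Monocyte genes stood 1.44 and interferon genes 1.49 (9 of 11 tested members at least 2-fold higher) above other cells. Class II genes gave a sum ratio of 1.17 (3 of 6), but 1 cell held 841 of their 928 dividing RA UMIs. The class II median per 10000 UMIs was lower in dividing than in other RA cells (1.97 against 4.01). The part of these lists in the macrophage ratio was not tested.

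The 12 RA dividing cells can be given one by one. The 5 with P2ry12/Tmem119 only had totals of 2779, 2875, 19981, 28188 and 75868 UMIs and held 7, 2, 46, 27 and 109 UMIs of that pair. The 3 with Pf4/Ms4a7 only had totals of 1328, 2625 and 20558 UMIs and held 15, 23 and 155 UMIs of their pair. The 4 with both had totals of 4730, 18745, 28878 and 61993 UMIs, with 2, 6, 32 and 35 UMIs of P2ry12/Tmem119 and 50, 43, 26 and 224 UMIs of Pf4/Ms4a7. No class had more than 5 cells, so RA levels within a class rest on 5 cells or fewer.

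Activation genes were compared between the libraries and between dividing and other cells. Between OIR and RA dividing cells 3619 genes were tested, of which 10.8% were at least 2-fold higher and 10.1% at least 2-fold lower in OIR, with a median log2 ratio of 0.07. Of 28 activation genes 18 were tested and 8 were at least 2-fold higher, 0 lower, and the sum differed by 0.42 (0.39 to 0.45), or by 0.07 without the 2% of cells with most genes. In other cells 13 of 22 tested members were higher, against 5.92% of 3259 genes higher and 6.08% lower, and the sum differed by 0.55. Of the list 1 gene was not in the files.

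Lyz2, the lysozyme of macrophages, had 1 UMI in the 12 RA dividing cells (3.72 CPM, 0.0943 to 20.7) and stood at 1171 CPM (1129 to 1215) in OIR. Its level in other cells was 4.40 and 1310 CPM. It was found in 76.8% of OIR dividing cells and 0.743% of rod cells. Lgals3, a galectin of activated phagocytes, stood at 22.3 CPM (8.20 to 48.6, 6 UMIs) in RA and 413 CPM (388 to 439) in OIR, a log2 ratio of 4.21 (3.08 to 5.66), against 57 and 513 CPM in other cells. Both genes were high in OIR cells whether or not they divided.

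Vim, the intermediate filament vimentin, stood at 7.45 CPM (0.902 to 26.9, 2 UMIs) in RA and 440 CPM (415 to 467) in OIR dividing cells, against 65.8 and 326 CPM in other cells. It was found in 62.2% of OIR dividing and 42.1% of other OIR cells and in 7.25% of rod cells. After thinning these shares were 31.7% and 26.1%. Spp1, the secreted protein osteopontin, had 2 UMIs in RA and 311 CPM in OIR, from 33.5% of cells, of which 1 cell held 234 of 775 UMIs. Igf1, a growth factor, stood at 41.0 and 123 CPM, and Csf1, a ligand of Csf1r, at 14.9 (4 UMIs) and 123 CPM.

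Lipid and lysosome genes of activated microglia were also compared. Lpl, lipoprotein lipase, stood at 142 CPM in RA and 352 CPM in OIR dividing cells, and Cd63, a late endosome protein, at 413 and 1030 CPM. Apoe, the lipid carrier, stood at 18820 and 18759 CPM, against 22146 and 25029 CPM in other cells. Within OIR, 22 activation genes were tested, of which 1 was at least 2-fold higher and 2 lower in dividing cells, and the sum differed by -0.38 (-0.39 to -0.37). Activation genes were thus on balance lower in dividing than in other OIR cells.

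Cytokine genes as a list gave an OIR over RA sum ratio of 0.05 (0.02 to 0.08) in dividing cells, with 2 of 16 tested members at least 2-fold higher. The ratio ran from -0.45, without the 2% of cells with most genes, to 0.33 in cells with P2ry12/Tmem119 only, which fixes no direction. Between dividing and other cells 1 of 16 tested members was at least 2-fold higher and 0 lower in OIR, and 4 of 16 were higher and 1 lower in RA. Cxcl10, a chemokine for T cells, passed 2-fold in both libraries. It stood at 1910 CPM (1749 to 2083) in RA and 2141 CPM (2084 to 2199) in OIR dividing cells, against 790 and 768 CPM in other cells, and was found in 65.2% of OIR dividing, 35.2% of other OIR and 1.30% of rod cells. After thinning these OIR shares were 57.7% and 28.7%. Ccl2, which draws monocytes, stood at 2033 and 4131 CPM against 1605 and 2773 CPM. Tnf stood at 663 and 1702 CPM in dividing cells against 1356 and 1720 CPM, and Il1b at 2212 and 2036 CPM against 1645 and 2443 CPM.

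Class II antigen presentation genes gave an OIR over RA ratio of -1.83 in dividing cells, and this value came from 1 RA cell. That cell held 492 of the 516 RA UMIs of Cd74, the invariant chain, and 841 of the 928 UMIs of the 7 genes. H2-Aa, a class II alpha chain, had 122 UMIs in RA, all in that cell. The median per 10000 UMIs was 1.97 in RA and 3.39 in OIR dividing cells. In cells with P2ry12/Tmem119 only (5 RA and 79 OIR cells) the ratio was 0.88.

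Interferon-induced genes gave a ratio of -1.06 (-1.16 to -0.95) with 6 of 11 tested members at least 2-fold lower in OIR, and 464 of the 862 RA UMIs were in 1 cell. The median per 10000 UMIs was 24.4 in RA and 7.83 in OIR dividing cells. Ifi27l2a stood at 912 CPM in RA, where 1 cell held 130 of 245 UMIs, and at 297 CPM in OIR dividing cells, against 158 and 178 CPM in other cells. In cells with P2ry12/Tmem119 only the list ratio was 0.10. Neither list therefore gave a direction that held across the identities of the 12 RA cells.

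Immediate-early and stress genes were lower in dividing cells of both libraries, by ratios of -0.39 in RA and -0.33 in OIR. The RA ratio was -1.05 as a mean over cells and -0.65 without the 2% of cells with most genes. These genes respond to handling within minutes, and 1 of 21 tested members in OIR was at least 2-fold lower. Egr1, a zinc finger factor, gave an OIR over RA ratio of -1.02 in dividing cells and Btg2, a growth-restraining gene, -1.25. The nuclear transcript Malat1, often low in cells with damaged nuclei, stood at 14258 CPM in RA and 4167 CPM in OIR dividing cells, against 18726 and 7012 CPM in other cells. It was at 0 in 1 of 12 RA and 51 of 164 OIR dividing cells and in 43 of 926 and 215 of 741 other cells, so OIR cells without it were as frequent outside division. Its part in the differences between libraries was not tested.

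Glycolysis was the metabolic group that differed most between OIR and RA dividing cells. Of 19 glycolytic genes 13 were tested, and 10 were at least 2-fold higher and 1 lower in OIR. The sum was 1.56 higher (1.44 to 1.67) in dividing and 1.55 higher in other cells, where 11 of 14 were higher. Values per cell ran from 18.9 through a median of 57.7 to 318 per 10000 UMIs in OIR and from 14.9 through 28.1 to 45.2 in RA, so the OIR median lay above the highest RA cell.

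Gapdh, which oxidizes glyceraldehyde phosphate, stood at 938 CPM (826 to 1062) in RA and 2768 CPM (2703 to 2834) in OIR dividing cells, against 730 and 2574 CPM in other cells. Pkm, pyruvate kinase, stood at 201 CPM (151 to 262) and 832 CPM (796 to 868) against 290 and 1025 CPM. Ldha, which makes lactate, stood at 164 and 609 CPM against 230 and 607 CPM. Aldoa, the aldolase, stood at 123 and 502 CPM. Hk2, a hexokinase that starts the pathway, went the other way, at 194 and 65.1 CPM in dividing and 236 and 110 CPM in other cells. Rod cells held a Gapdh UMI in 98.3% and a Pkm UMI in 96.8% of cells, and the part of rod transcripts in these levels was not tested.

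Between dividing and other OIR cells the glycolytic sum differed by only -0.14 (-0.16 to -0.11), and 0 of 14 tested members passed 2-fold in either direction. It differed by 0.23 in cells with P2ry12/Tmem119 only, so the sign in all cells was not that within this class. In cells with Pf4/Ms4a7 only it differed by 0.08 (-0.02 to 0.19), which does not fix a direction. Hypoxia genes stood 0.65 higher (0.34 to 0.97) in OIR than in RA dividing cells and 0.61 higher in other cells.

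Respiratory chain genes coded in the nucleus ran against glycolysis between libraries. Their sum was lower by a ratio of -0.49 (-0.56 to -0.42), with 12 of 25 tested members at least 2-fold lower and 2 higher in OIR dividing cells. Ndufa2, of complex I, stood at 268 CPM in RA and 72.7 CPM in OIR, and Uqcrh, of complex III, at 417 and 132 CPM, whereas Atp5b, a subunit of ATP synthase, stood at 279 and 619 CPM. Between dividing and other cells the sum was 0.41 higher in RA and 0.32 higher in OIR, with 22 of 23 tested OIR members above 0. Mitochondrially coded respiration genes differed by 0.10 between dividing cells of the libraries, with 6 of 12 tested members above 0, 0 at least 2-fold higher and 3 lower in OIR.

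**Figure D4:**
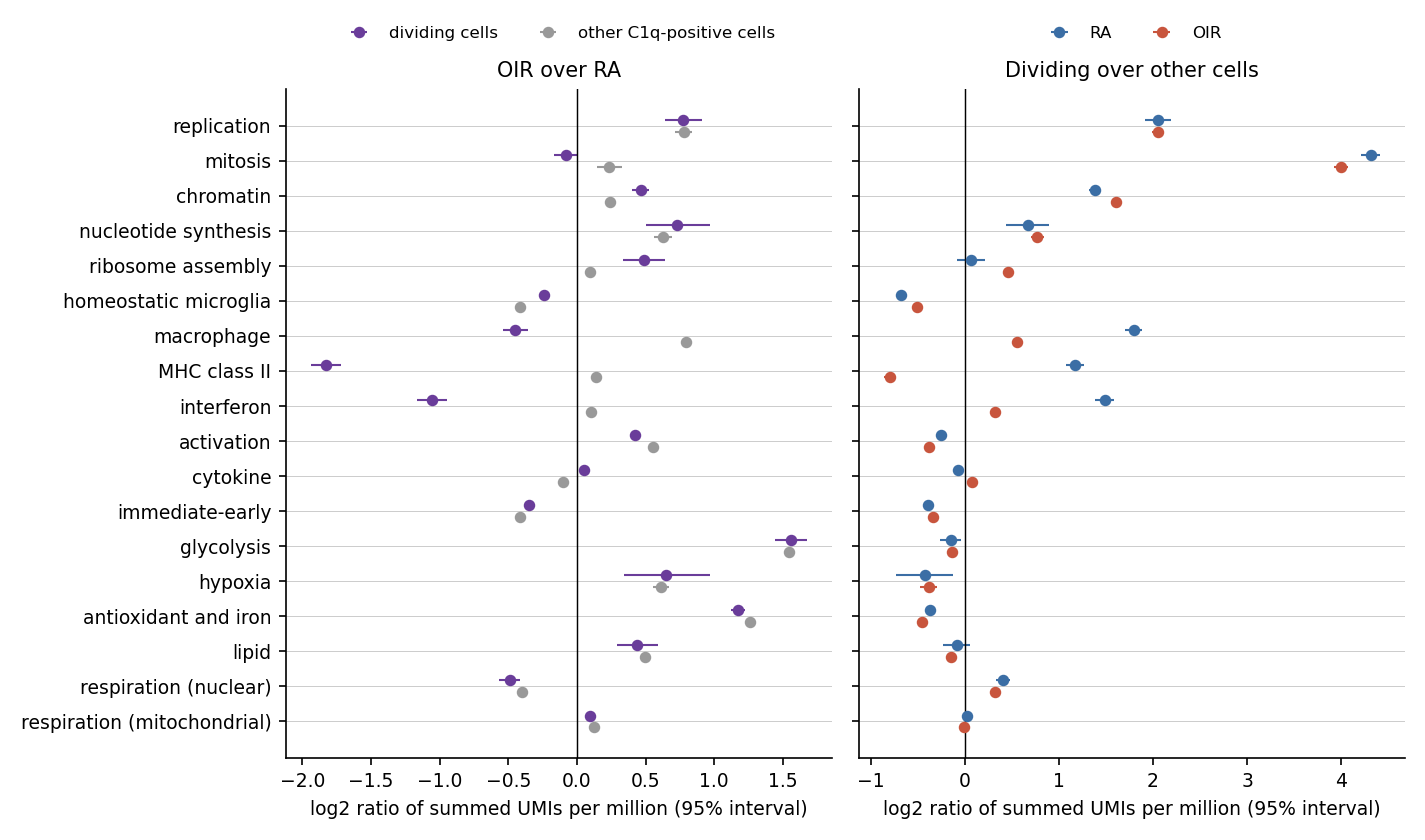
Log2 ratios of the summed CPM of 18 gene lists (rows) with 95% counting intervals, left for OIR over RA in dividing and other C1q-positive cells and right for dividing over other cells in RA and OIR. Glycolysis lies at 1.56 and 1.55 on the left and at -0.15 and -0.14 on the right, whereas chromatin lies at 1.38 and 1.61 on the right.

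Nucleotide synthesis genes were higher in dividing cells of both libraries, by 0.67 in RA and 0.77 (0.70 to 0.85) in OIR. All 7 tested OIR members lay above 0, and 1 passed 2-fold. Paics, of purine synthesis, stood at 55.9 CPM in RA and 111 CPM in OIR dividing cells, against 33.2 and 60.9 CPM in other cells. Nme1, a nucleoside diphosphate kinase, stood at 104 and 196 CPM against 71.7 and 127 CPM. Dtymk, which phosphorylates thymidylate, stood at 67.0 and 73.9 CPM against 16.6 and 26.9 CPM.

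Serine and folate metabolism feed nucleotide synthesis with carbon. Phgdh, which commits glycolytic carbon to serine, stood at 33.5 CPM (15.3 to 63.6) in RA and 200 CPM (183 to 218) in OIR dividing cells, against 61.5 and 110 CPM in other cells. It was found in 65.9% of OIR dividing and 40.5% of other OIR cells, and after thinning in 33.8% and 17.1%, against 0.372% of rod cells. Shmt2, the mitochondrial enzyme that takes the carbon from serine, stood at 38.2 CPM in dividing and 17.7 CPM in other OIR cells, and its cytosolic partner Shmt1 at 15.3 and 3.56 CPM. Phgdh was among the 8 genes with the widest ratio of OIR over RA in dividing cells.

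Ribosome assembly genes were 0.46 higher (0.41 to 0.51) in OIR dividing than other cells, with 8 of 8 tested members above 0. In RA the ratio was 0.07 (-0.09 to 0.22) with 4 of 7 above 0, which does not fix a direction. Ncl, nucleolin, stood at 502 against 354 CPM in OIR and at 350 against 349 CPM in RA. Nop58, of the snoRNA complex, stood at 100.4 against 47.8 CPM in OIR and at 78.2 against 65.4 CPM in RA.

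Antioxidant and iron genes were 1.17 higher (1.12 to 1.23) in OIR than RA dividing cells, with 6 of 10 tested members at least 2-fold higher and 0 lower, and 1.26 higher in other cells. Fth1, ferritin heavy chain, stood at 4733 and 10953 CPM against 5009 and 13988 CPM in other cells. Hmox1, heme oxygenase, stood at 726 and 1516 CPM against 1474 and 3136 CPM, about 1 lower on the log2 scale in dividing than other cells of each library (-1.02 in RA and -1.05 in OIR). Slc7a11, the cystine transporter, stood at 11.2 (3 UMIs) and 96.8 CPM against 45.5 and 144 CPM. Txn1, thioredoxin, was 1.56 and 0.68 higher in dividing cells. The lipid list differed by 0.44 between libraries and by -0.14 between dividing and other OIR cells.

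**Figure D5:**
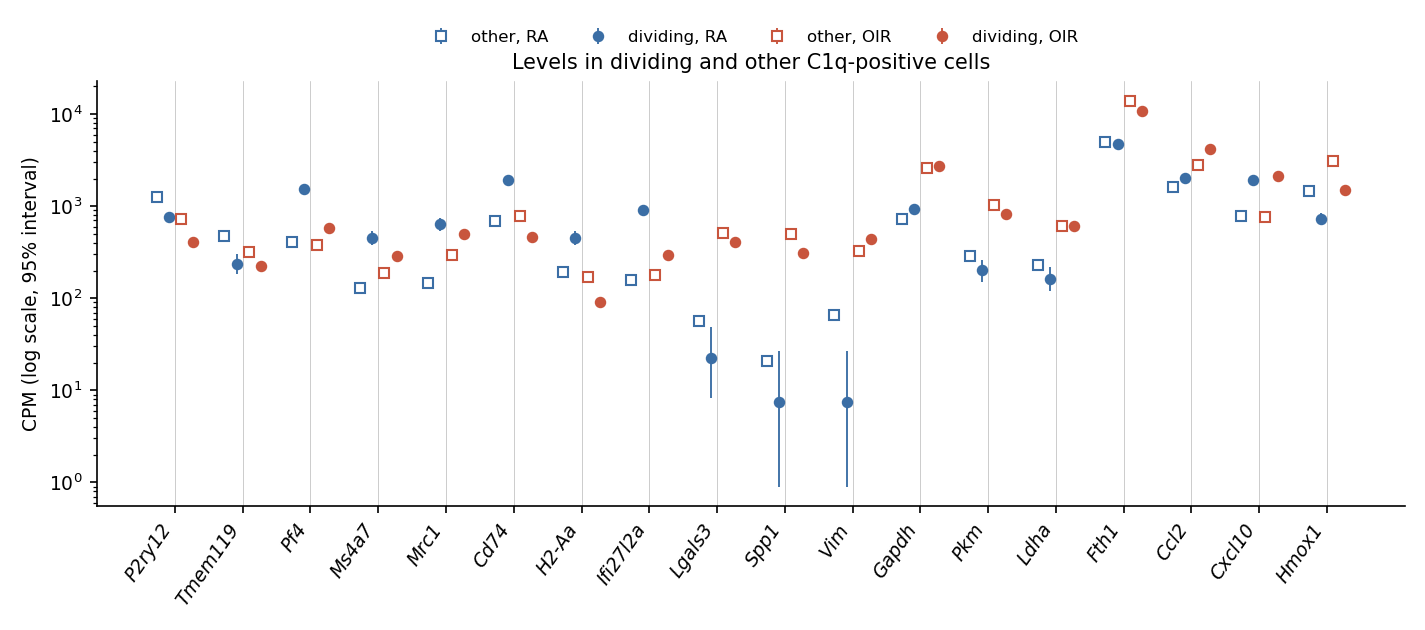
Level (CPM, log scale, with 95% Poisson intervals) of 18 genes in other (open squares) and dividing (filled circles) C1q-positive cells of RA and OIR. Lgals3, Spp1 and Vim stand at 7.45 to 22.3 CPM in RA dividing cells and at 311 to 440 CPM in OIR dividing cells, and Cxcl10 stands higher in dividing than other cells of both libraries.

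Among OIR cells with P2ry12/Tmem119 only, 79 dividing were set against 448 other cells, which compares cells of like identity. Here 7.47% of 3265 genes were at least 2-fold higher and 0.796% at least 2-fold lower in dividing cells. Apoe stood at 12264 against 20455 CPM, P2ry12 at 548 against 972 CPM and Tmem119 at 319 against 436 CPM. Pirb, an inhibitory receptor, and Abcg1, a sterol exporter, gave ratios of -2.29 and -1.34. P2ry12 and Tmem119 define the class, and dividing cells were deeper (a median of 13003 against 8527 UMIs) and so could enter it at a lower CPM, which leaves these 2 values as a description.

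Activation genes as a list stood lower in these dividing cells, with a sum ratio of -0.43, a median of -0.09, and 6 of 20 tested members above 0, of which 1 was at least 2-fold higher. Among the members above 0, Vim stood at 466 against 232 CPM, a ratio of 1.01 (0.85 to 1.16), and Lgals3 at 399 against 221 CPM, a ratio of 0.85 (0.68 to 1.02). Phgdh stood at 321 against 143 CPM, a ratio of 1.17 (0.97 to 1.36), and Cxcl10 at 3253 against 937 CPM, a ratio of 1.80 (1.73 to 1.86). In all C1q-positive OIR cells Lgals3 gave -0.31, or -1.49 as a mean over cells, and in cells with Pf4/Ms4a7 only it gave -0.51, so its sign depended on the class.

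Among OIR cells with Pf4/Ms4a7 only, 22 dividing were set against 58 other cells. At least 2-fold higher were 16% and at least 2-fold lower 7.19% of 3629 genes. Class II genes stood at 150 CPM (32 UMIs) in dividing and 6059 CPM in other cells, where 1 cell held 931 of 1954 UMIs, and Cd74 at 89.0 against 3330 CPM. The medians per 10000 UMIs were 1.045 and 1.55, and the highest dividing and other cells stood at 5.16 and 673, so a few cells carried the gap. Pf4 stood at 1635 against 2102 CPM and Ms4a7 at 726 against 887 CPM. Hmox1 gave -2.21 (-2.49 to -1.94), Klf4, an immediate-early factor, -3.21, and 11 of 21 tested stress genes were at least 2-fold lower. Activation genes gave a sum ratio of -0.77 (-0.81 to -0.73), with 5 of 20 tested members at least 2-fold lower and 1 higher.

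Nucleotide synthesis and ribosome assembly genes stood higher in the dividing cells of this class. Of 10 tested nucleotide genes 8 were at least 2-fold higher, and of 11 tested ribosome assembly genes 8 were, with sums of 1.33 and 1.13. Glycolysis differed by 0.08 with 0 of 12 past 2-fold, lipid genes by 0.04 and hypoxia genes by -0.09, and antioxidant and iron genes by -0.88 with 2 of 9 at least 2-fold lower. Npm1, nucleophosmin, stood at 1129 against 530 CPM, and Shmt2 at 79.7 (17 UMIs) against 9.30 CPM (3 UMIs), a ratio of 3.1 (1.31 to 5.51). Cxcl10 stood at 1021 against 403 CPM, a ratio of 1.34 (1.02 to 1.67), so it was higher in dividing cells of both classes.

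The remaining genes with wide ratios between OIR and RA dividing cells rested on few RA cells. Higher in OIR were Sec13, a coat protein of secretory vesicles, at 11.2 (3 UMIs) and 89.6 CPM, Fkbp4, a chaperone partner, at 14.9 and 107 CPM, and Anxa2, an annexin, at 18.6 and 129 CPM. Lower were Apoc1, an apolipoprotein, at 253 and 37.4 CPM, Lst1, a leukocyte gene, at 343 and 53.4 CPM, and Hes1, a Notch target, at 104 and 9.24 CPM. Dnase1l3, a secreted nuclease, gave -5.06, from 18 RA UMIs in 1 cell. Xist, the RNA of the inactive X chromosome in females, stood at 782 and 121 CPM in dividing and 482 and 164 CPM in other cells, so the sexes in the pools and the condition cannot be told apart.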

How the data were processed

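Per the labels and file headers, the authors sorted CD11b and F4/80 positive retinal cells and deposited the UMI counts of every gene in every cell, made with Cell Ranger 3.1.0 without normalization, and the submitters' processing notes also name Seurat 4.0 and mm10. Genes were taken by symbol, and 35 symbols stand on more than 1 identifier. For such symbols, levels, ratios and list sums of listed genes used the identifier with most UMIs. The per-cell counts behind the rule and the identity classes took in every identifier.

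The members and lists were chosen with earlier results of these data known. Levels are the UMIs of all cells in a group, added and scaled to that group's total (CPM). Intervals of 95% are exact Poisson for levels, Clopper-Pearson for shares and exact conditional for log2 ratios, and ratios against 0 use a floor of 3 UMIs. They were tested on simulated data. With 1 library per condition no test was made, and 2-fold marks size alone. Genes were tested at 50 CPM or more in 1 group with at least 3 UMIs in both. Scrublet (scanpy 1.11.5) called doublets in under 0.5% of cells and so did not work as a filter. No cell was removed as a doublet.

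Genes are named where they are among the 4 identity or 8 rule genes, the 4 most abundant or 2 most different members of a list per direction, or the 8 widest ratios outside the cell cycle lists. Outside this rule Ptprc, Ccr2, Ly6c2, Ccne1, Rbl1, Ezh2, Dnmt1, Lyz2, Spp1, Lpl, Cd63, Il1b, Egr1, Shmt1, Shmt2 and Pirb were named after their values were seen. Some genes that the rule takes are not reported here. Python 3.11.15, numpy 2.4.6, scipy 1.17.1, pandas 2.3.3 and matplotlib 3.10.9 were used, with seed 1 for thinning. Promoter sequences are from RefSeq (GRCm38.p6). Alternatives covered cell filters, the rule, thinning, weighting, scaling and filters on low values. Leaving out replicates was not possible with 1 library per condition.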

Additional observations from a re-analysis of the deposited data

How the results depend on the processing

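No paired analysis was possible because each condition has 1 library. Of 200 alternatives for shares, classes and counts of genes 156 stayed within their limits and 44 moved. Of 699 alternatives for other values 438 stayed, 259 moved and 2 were counted as reversed. That count is narrower than the 19 changes of sign given below. The share of dividing cells was 0.470% in RA at a thinned depth of 4000 UMIs and 2.45% with at least 2 of the 8 genes. In OIR it was 11.2% at 2000 and 14.6% at 4000 UMIs, 22% with at least 2 genes and 15.4% with at least 4. Of the OIR classes, P2ry12/Tmem119 only was 37.9% at 2000 UMIs and 31.0% with only the classes thinned. Pf4/Ms4a7 only was 21.8% and 23.9%. Both pairs was 1.15% and 3.52%, 10.8% at 4000 UMIs, 12.8% without the 2% of cells with most genes and 30.5% with a limit of 1 UMI. Neither pair was 39.1% and 41.5%, 28.0% at 4000 UMIs, 9.86% in cells with at least 2000 UMIs, 7.93% with a limit of 1 UMI and 25.6% with a limit of 3.

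Between OIR and RA dividing cells 390 genes were higher and 367 lower. Means over cells gave 700 and 577, a minimum of 20 CPM gave 669 and 668, and cells with P2ry12/Tmem119 only gave 569 lower. In that class the class II ratio reversed to 0.88 and the interferon ratio to 0.10, with RA then resting on 5 cells. Between dividing and other RA cells 307 genes were higher and 109 lower. Without the 2% of cells with most genes 502 were higher and 273 lower, without cells with at least 5 rod UMIs 512 and 259, with means over cells 783 and 569, with 20 CPM 686 and 261, without the largest cell of each group 500 and 261, and with at least 2 of the 8 genes 59 were lower. In OIR, 192 were higher and 23 lower. With 20 CPM 383 and 76 were, and the lower count was 14 with at least 10 C1q UMIs, 15 without cells with rod UMIs, 60 with means over cells and 38 against cells with none of the 8 genes. In cells with P2ry12/Tmem119 only it was 41 with at least 4 of the 8 genes.

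Omission of the largest cell of each group, the classes thinned alone and the filters applied within classes were chosen after seeing the data. Of 660 alternatives for ratios of lists and genes 19 changed sign, of which 3 had a ratio of at least 0.25 in size. For OIR over RA in dividing cells glycolysis ranged from 1.40 to 1.69, antioxidant genes from 1.07 to 1.37, activation from 0.07 to 0.58, Lgals3 from 3.60 to 5.23 and the macrophage list from -1.33 to 1.49, which fixes no direction. Between dividing and other OIR cells the macrophage list ranged from 0.14 to 0.87 and the homeostatic list from -0.59 to -0.43. In OIR cells with Pf4/Ms4a7 only the macrophage list gave -0.30, which lies outside its range. Between dividing and other RA cells the macrophage list ranged from 1.55 to 2.5, interferon genes from 1.30 to 1.94, class II genes from 1.09 to 2.35, stress genes from -1.05 to -0.33, nucleotide genes from 0.29 to 1.10, and glycolysis from -0.29 to 0.07 and activation from -0.33 to 0.01, both without a fixed direction. For the class II genes 1 cell held 841 of the 928 dividing RA UMIs. Their median per 10000 UMIs was lower in dividing than in other RA cells (1.97 against 4.01), so this range does not describe the typical cell. Comparisons of dividing RA cells rest on 12 cells.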
